A study of Mus musculus with 6 samples.

Results

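Homeobox and forkhead patterning factors were followed in mGB2, a mouse glioblastoma cell line, in 3 Bcat1-KO libraries and 3 Control libraries. The genes were those named Hoxa to Hoxd, Dlx, Lhx, Pax, Otx, Emx, Irx, Meis, Pbx, Zic, Nkx or Foxa to Foxs followed by a digit, and the Six2 to Six6 family, leaving out names that end in os, as or Rik. This rule took 155 of the 49585 genes in the tables. Among them 148 are protein coding and 7 are noncoding RNAs whose names end in a number, such as Six3os1. Bcat1-KO cells carry a targeted Bcat1, the gene of the cytosolic branched-chain aminotransferase, and the Control cells are labelled NT in the design text. Both grew untreated and attached to coated plates, in medium with EGF and FGF, until confluent. The labels call them glioblastoma stem cells and state neither whether each genotype is a clone or a pool nor whether replicates were separate cultures. The p-values therefore cover the spread between libraries, part of which may be technical.

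Homeobox proteins bind DNA through a homeodomain and forkhead proteins through a winged-helix domain, and many of them give cells of the embryo their position along the body and the neural tube. In the developing brain, Emx and Dlx genes mark parts of the forebrain, Otx2 the forebrain and midbrain, and Hox genes the hindbrain and spinal cord, with low-numbered Hox genes active further forward than high-numbered ones. Meis and Pbx proteins bind DNA together with Hox proteins.

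Depth was 29543157 to 37800648 reverse-strand counts a library. A count of 0 allows up to 3 counts, or 0.078 to 0.103 CPM (counts scaled to library size by TMM), for counting error alone. Bcat1 itself had 155, 176 and 173 CPM in the Bcat1-KO libraries, against 214, 223 and 232 CPM in the Control libraries, so its transcript was lower but present in the libraries labelled Bcat1-KO. Of 12 markers of neural stem cells and glioma 9 were higher, where 32% of all tested genes were, and their sum was 3775 to 4056 CPM in Bcat1-KO and 2020 to 2109 CPM in Control. Immune markers summed to 3.19 to 4.39 CPM in Bcat1-KO and 2.96 to 4.74 CPM in Control, with Itgam at 0. Endothelial markers summed to 0.388 to 0.832 CPM in Bcat1-KO and 0.826 to 1.05 CPM in Control, with Cldn5 at 0. In bulk RNA, fewer cells with a transcript and less of it in each cell cannot be told apart.

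Many of the genes were silent. A gene was called silent when its mean stayed under 0.1 CPM in both groups, and 88 of the 155 genes were (56.8%), against 67.1% of all genes in the tables. Among protein-coding genes the share was 83 of 148 members (56.1%), against 38.9% of all protein-coding genes. For 65 of the 148 (43.9%) not 1 read was counted in any of the 6 libraries, against 25.7% of all protein-coding genes. Of the 67 genes that were not silent, 62 passed the expression filter and were tested. The other 5 were Dlx6, a row of Dlx6os1, Foxl1, Hoxa13 and Pax8, with 3 to 30 counts summed over a group.

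**Figure D1:**
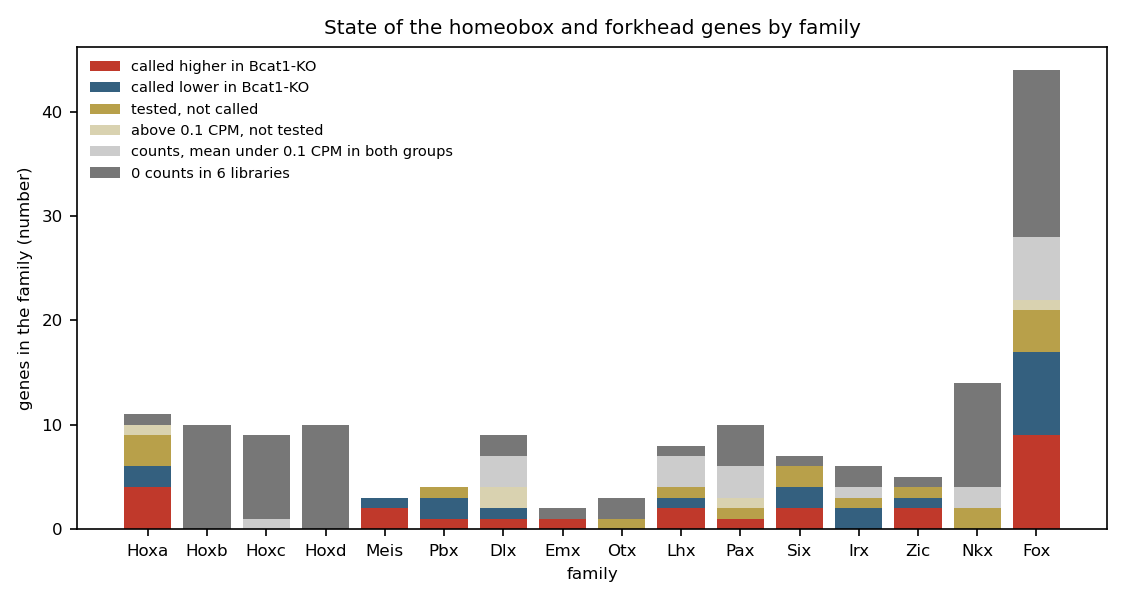
Number of genes in each family (vertical axis) by state, from 0 counts in all 6 libraries to called higher or lower in Bcat1-KO (edgeR, adjusted p under 0.05). The Hoxb, Hoxc and Hoxd bars hold 29 silent genes, whereas 9 of 11 Hoxa genes were tested.

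The Hox genes divided by cluster. All 10 Hoxb rows and all 10 Hoxd rows had 0 counts in every library, and so had 8 of 9 Hoxc genes. Hoxc6 had 0 counts in Bcat1-KO and 2 counts in Control. The Hoxa cluster lies on the minus strand of chromosome 6, with Hoxa2 from 52162417 to 52164831 and Hoxa13 from 52257694 to 52260880 in mm10, and its listed genes from Hoxa2 to Hoxa10 were all transcribed. The authors' TPM values, which correct for gene length, summed over the Hoxa genes to 469 ± 46.3 in Bcat1-KO and 412 ± 9.35 in Control (mean ± SD, n = 3 each, as for all means below). Hoxa11 had 0 counts in all libraries. Hoxa13, the last gene, had 30 counts in Bcat1-KO and 3 in Control and was too low to be tested.

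The middle of the cluster held its highest levels. Hoxa7 averaged 146 ± 7.05 TPM in Bcat1-KO cells and 142 ± 1.94 TPM in Control cells. Hoxa5 averaged 114 ± 19.2 TPM in Bcat1-KO cells and 91.8 ± 5.16 TPM in Control cells, and Hoxa6 82.1 ± 18.6 TPM in Bcat1-KO cells and 75.5 ± 3.12 TPM in Control cells. Hoxa9 lies between Hoxa7 and Hoxa10 and was lower than either, at 0.936 ± 0.357 TPM in Bcat1-KO cells and 1.52 ± 0.114 TPM in Control cells. Hoxa7 and Foxk2, a forkhead gene, had the highest TPM of the 155 genes, with means over 6 libraries of 144 and 143.

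Within the cluster Hoxa2 to Hoxa4 moved one way and Hoxa9 and Hoxa10 the other. Hoxa2, which patterns the hindbrain and the pharyngeal arches, had 14.1, 13.6 and 12.4 CPM in the Bcat1-KO libraries, against 6.52, 6.93 and 6.64 CPM in the Control libraries. The groups did not overlap (adjusted p = 7.45e-06 by edgeR, log2 fold change 0.99, SE 0.11, with Benjamini-Hochberg adjustment over 14020 genes). Also higher were Hoxa4 (log2 fold change 0.43, adjusted p = 0.00628) and Hoxa3 (log2 fold change 0.25, adjusted p = 0.0127).

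On the lower side, Hoxa10, a gene of posterior regions, had 25.5, 26.8 and 27.4 CPM in the Bcat1-KO libraries, against 36.7, 36.3 and 35.7 CPM in the Control libraries. All Bcat1-KO libraries lay below all Control libraries (adjusted p = 0.000147 by edgeR, log2 fold change -0.45, SE 0.07), and the log2 fold change was -0.70 with the median of 51 neighbouring genes removed. Hoxa9 was lower too (adjusted p = 0.0218 by edgeR, log2 fold change -0.75, SE 0.25), from 60, 83 and 35 counts in the Bcat1-KO libraries and 88, 93 and 71 counts in the Control libraries. Between them 3 genes did not pass, with log2 fold changes of 0.26 for Hoxa5 (adjusted p = 0.0598), 0.071 for Hoxa6 (adjusted p = 0.681) and -0.018 for Hoxa7 (adjusted p = 0.824). Over the 9 tested Hoxa genes, Spearman's rho between gene number and log2 fold change was -0.917, a description across genes that share libraries and a locus. Hoxa13, which was not tested and is not in this value, went the way of Hoxa2, with 16, 3 and 11 counts in the Bcat1-KO libraries and 1 in each Control library. With each Bcat1-KO library set against the Control mean, rho over the 9 tested Hoxa genes was -0.867, -0.95 and -0.933.

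Some Hoxa values rest on single libraries. Bcat1-KO replicate 1 was the highest for Hoxa5 (79.5 CPM, beside 59.5 and 57.1 CPM) and Hoxa6 (28 CPM, beside 17.6 and 20.2 CPM), and without it the log2 fold changes were 0.075 for Hoxa5 and -0.16 for Hoxa6. Hoxa5 passed in 5 of 15 alternatives, among them those without Bcat1-KO replicate 2 (adjusted p = 0.0451) or 3 (adjusted p = 0.0279) and the replicate block (adjusted p = 0.0264). Hoxa3 lost its call without Bcat1-KO replicate 3 or Control replicate 2 or 3, and Hoxa9 without Bcat1-KO replicate 3 or Control replicate 1 or 2. With the median change of 51 neighbouring genes removed, Hoxa3 (log2 fold change 0.13) and Hoxa4 (0.25) no longer passed, and Hoxa7 did (-0.28, adjusted p = 0.00398). Hotairm1, a noncoding RNA of the Hoxa cluster, was higher, at 16.1 ± 0.653 CPM in Bcat1-KO cells and 6.89 ± 0.466 CPM in Control cells (adjusted p = 9.59e-07 by edgeR, log2 fold change 1.23, SE 0.10).

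**Figure D2:**
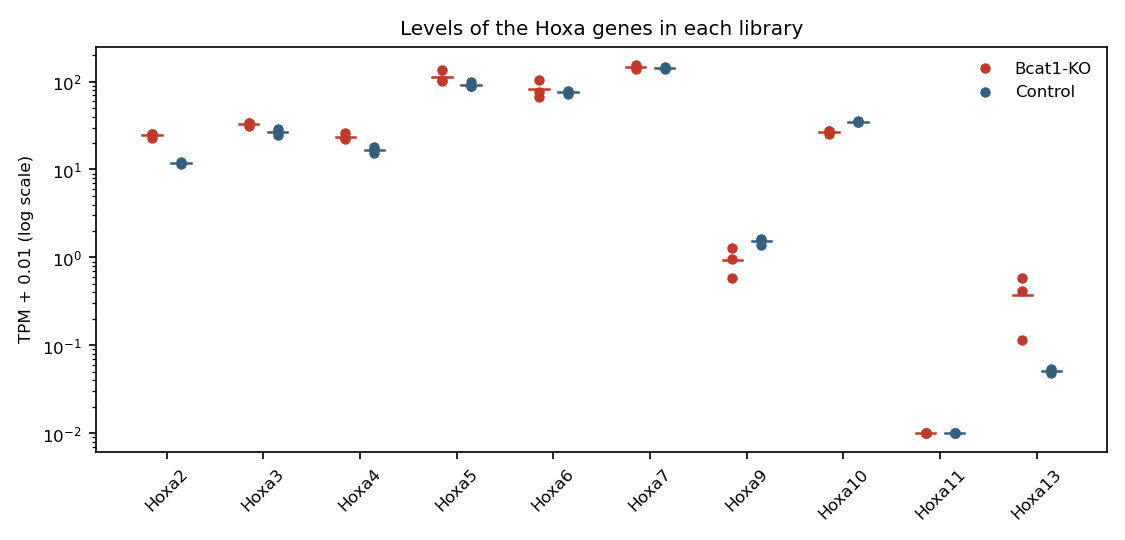
TPM plus 0.01 on a log scale (vertical axis) for Hoxa2 to Hoxa13 in cluster order, with a point for each library and a line at the mean of 3. Bcat1-KO points lie above Control points for Hoxa2, mix with them for Hoxa6 and Hoxa7, and lie below them for Hoxa9 and Hoxa10.

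The other families held genes that normally mark different levels of the brain. Six3, which acts in the most forward neural plate and the eye field, averaged 16.8 ± 0.155 TPM in Bcat1-KO cells and 13.1 ± 0.183 TPM in Control cells. Pax6, which acts in the eye and in cortical progenitors, averaged 15.6 ± 0.46 TPM in Bcat1-KO cells and 12.6 ± 0.696 TPM in Control cells. Emx2, Dlx1, Dlx2, Lhx2 and Otx1 were transcribed in both groups as well. Otx2, Emx1, Six6, Lhx5 and Nkx2-1, which marks the ventral forebrain, had 0 counts in all 6 libraries. Lhx6, Lhx8 and Dlx5 had at most 2 counts in either group.

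Some further factors of the neural tube and neural crest had no reads. Pax2, Pax5, Pax3, Pax7, Foxa2, Foxb1, Foxd1, Foxd3 and Nkx6-1 had 0 counts in all 6 libraries. Other genes of the neural crest and Schwann lineage were transcribed. Of 7 listed beside Foxd3, 4 were tested, with 1 higher and 2 lower, and Tfap2b had 0 counts. The list summed to 29.7 to 38.8 CPM in Bcat1-KO and 31.5 to 36.5 CPM in Control. Of all tested genes 32% were higher and 30.3% lower. Nkx2-2, which patterns the ventral neural tube and acts in oligodendrocyte precursors, was transcribed, at 50.6 ± 1.49 TPM in Bcat1-KO cells and 44.9 ± 2.11 TPM in Control cells (adjusted p = 0.14 by edgeR, log2 fold change 0.12, SE 0.07). Outside the families, En1, a homeobox gene of the midbrain and hindbrain, averaged 14.3 ± 0.628 CPM in Bcat1-KO cells and 22.6 ± 1.56 CPM in Control cells (adjusted p = 4.84e-05 by edgeR, log2 fold change -0.67, SE 0.09). Its paralog En2 averaged 21 ± 1.68 CPM in Bcat1-KO cells and 18.4 ± 1.21 CPM in Control cells and did not pass (adjusted p = 0.0946). Of a midbrain and isthmus list, 6 genes outside the families were tested. There 3 were higher and 1, En1, lower, beside 32% and 30.3% of all tested genes. Gata2, Gata3 and Fgf8 were higher, by 1.87, 1.94 and 4.07 on the log2 scale. Fgf8 averaged under 1 CPM in both groups, with 86 counts in Bcat1-KO and 4 in Control. Gata2 was low too, at 1.1 ± 0.124 CPM in Bcat1-KO cells and 0.3 ± 0.055 CPM in Control cells. Lmx1a had 0 counts, and Lmx1b, Barhl1, Wnt1 and Pitx3 had at most 6 counts in either group. Transcripts of some forebrain, midbrain and hindbrain factors were present side by side in both genotypes. Bulk libraries do not show whether the same cells held them.

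Of the 62 tested genes, 45 passed (72.6%; edgeR, adjusted p under 0.05), where 62.3% of all 14020 tested genes did. There were 25 higher in Bcat1-KO (40.3%), against 32% of all tested genes, and 20 lower (32.3%), against 30.3%. A change of 1 or more on the log2 scale was reached by 11 higher genes (17.7%, against 9.76%) and 6 lower genes (9.68%, against 9.43%). The groups did not overlap for 49 of the 62 (79%), against 67.7% of all tested genes. Lack of overlap was part of the rule that named members for their change, so it is no added support for them. The median log2 fold change was 0.099 for these 62 and 0.011 for all tested genes. A gene that passed the filter through 1 group alone had to differ, so these counts describe the genes and test nothing about the families.

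**Figure D3:**
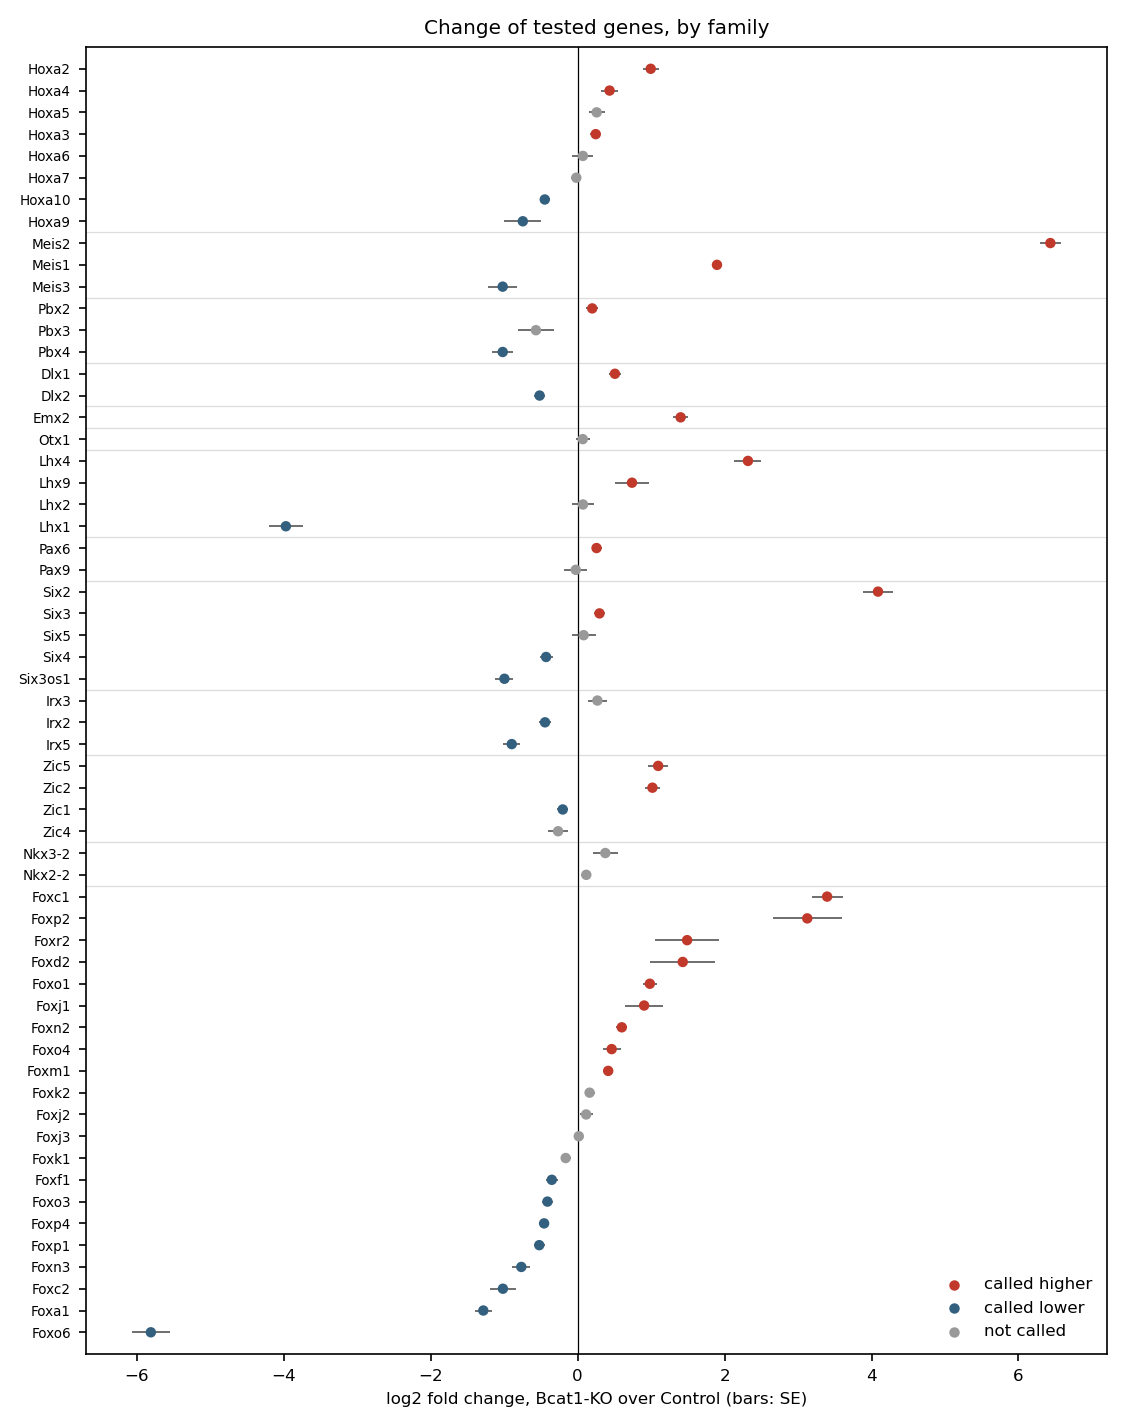
Log2 fold change of Bcat1-KO over Control for tested genes, grouped by family, with bars for the SE and colour for the edgeR call. Values run from -5.81 for Foxo6 to 6.43 for Meis2, and the Hoxa genes lie between -0.75 and 0.99.

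Meis2 had the largest change of the 62. Meis proteins are homeobox partners of Hox and Pbx, and Meis2 (chromosome 2, 115863064 to 116065839, minus strand) acts in the striatum, midbrain and hindbrain among other places. It had 37.8, 42.3 and 42.6 CPM in the Bcat1-KO libraries, against 0.382, 0.482 and 0.551 CPM in the Control libraries. The groups lay 86.5-fold apart (adjusted p = 9.3e-12 by edgeR, log2 fold change 6.43, SE 0.14), and the Control libraries held 44 reads between them. Meis1, a paralog, had 51.8, 56.5 and 54.9 CPM in the Bcat1-KO libraries, against 14.7, 14.7 and 14.4 CPM in the Control libraries, again without overlap (adjusted p = 7.41e-10 by edgeR, log2 fold change 1.90, SE 0.07). Meis3 was low and went the other way, at 0.917 ± 0.106 CPM in Bcat1-KO cells and 1.87 ± 0.0942 CPM in Control cells (adjusted p = 0.000887 by edgeR, log2 fold change -1.02, SE 0.20). Per length, Meis2 averaged 11.1 ± 0.918 TPM in Bcat1-KO cells and 0.124 ± 0.022 TPM in Control cells, and Meis1 16.9 ± 1.03 TPM in Bcat1-KO cells and 4.38 ± 0.0455 TPM in Control cells.

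Pbx genes encode further homeobox partners of Hox. Pbx4 had 6.79, 5.98 and 5.39 CPM in the Bcat1-KO libraries, against 14.4, 12.2 and 10.2 CPM in the Control libraries, with all Bcat1-KO libraries lower (adjusted p = 8.08e-05 by edgeR, log2 fold change -1.02, SE 0.15), and had -0.60 with the neighbouring genes' median removed. Pbx2 was just past the threshold (log2 fold change 0.20, adjusted p = 0.0457) with overlapping groups, and it lost its call in 8 of 15 alternatives. Pbx3 was just short of it (log2 fold change -0.57, adjusted p = 0.0588).

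Six2 had the next largest rise. Proteins of this homeobox family work with Eya and Dach proteins, and Six2 (chromosome 17, 85684277 to 85688274) is known from kidney and facial mesenchyme. It had 6.34, 5.07 and 5.64 CPM in the Bcat1-KO libraries, against 0.318, 0.362 and 0.31 CPM in the Control libraries, a 17-fold difference without overlap (adjusted p = 1.11e-08 by edgeR, log2 fold change 4.09, SE 0.21). Its neighbour Six3, at a distance of 55 kb, was higher by 0.30 on the log2 scale (adjusted p = 0.00324), a call that was lost with the neighbouring genes' median removed (adjusted p = 0.079). Six3os1, the antisense RNA at Six3, averaged 6.63 ± 0.614 CPM in Bcat1-KO cells and 13.2 ± 1.5 CPM in Control cells (adjusted p = 2.61e-05 by edgeR, log2 fold change -0.996, SE 0.12). Six4 fell by 0.43 on the log2 scale (adjusted p = 0.00121) and by 0.78 with the neighbouring genes' median removed, while Six5 (log2 fold change 0.082, adjusted p = 0.682) did not pass.

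Of the 6 Eya and Dach genes 5 were tested, with 3 higher and 1 lower, beside 32% and 30.3% of all tested genes. Eya1 averaged 11.1 ± 0.865 CPM in Bcat1-KO cells and 0.599 ± 0.313 CPM in Control cells (adjusted p = 2.74e-08 by edgeR, log2 fold change 4.20, SE 0.24). Eya4 averaged 1.94 ± 0.351 CPM in Bcat1-KO cells and 0.074 ± 0.0479 CPM in Control cells (adjusted p = 7.06e-07 by edgeR, log2 fold change 4.63, SE 0.38). Eya3 (log2 fold change 0.072, adjusted p = 0.337) did not pass.

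Foxo6 and Lhx1 had the largest falls. Foxo6, a forkhead factor of the insulin-regulated FoxO group found mainly in brain, had 0.388, 0.078 and 0.275 CPM in the Bcat1-KO libraries, against 14.1, 13.9 and 13.6 CPM in the Control libraries. It was 56.1-fold lower (adjusted p = 2.85e-09 by edgeR, log2 fold change -5.81, SE 0.26). Lhx1, a LIM-homeobox factor of spinal interneurons and Purkinje cells, had 0.803, 0.442 and 0.385 CPM in the Bcat1-KO libraries, against 7.35, 8.71 and 9.6 CPM in the Control libraries, and the groups were far apart (adjusted p = 3.72e-08 by edgeR, log2 fold change -3.97, SE 0.23). Lhx4, a LIM-homeobox factor of motor neurons and the pituitary, went up, with 7.51, 5.72 and 6.85 CPM in the Bcat1-KO libraries, against 1.21, 1.18 and 1.65 CPM in the Control libraries (adjusted p = 5.72e-07 by edgeR, log2 fold change 2.32, SE 0.18). Lhx2 (log2 fold change 0.073, adjusted p = 0.681) did not pass, and Lhx9 was higher (log2 fold change 0.74, adjusted p = 0.0165), a call lost with DESeq2 and without Bcat1-KO replicate 2 or Control replicate 1 or 2.

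LIM-homeobox proteins act through Ldb1, and Lmo proteins compete for it. Ldb1 averaged 204 ± 12.3 CPM in Bcat1-KO cells and 204 ± 16.5 CPM in Control cells and did not pass (adjusted p = 0.998). Of the 8 tested LIM cofactor genes 4 were higher and 3 lower, beside 32% and 30.3% of all tested genes. The whole list summed to 679 to 699 CPM in Bcat1-KO and 671 to 688 CPM in Control. Lmo2 had 511 counts in Bcat1-KO and 3 in Control (adjusted p = 3.92e-09 by edgeR), and Lmo4 averaged 106 ± 5.2 CPM in Bcat1-KO cells and 31.5 ± 1.18 CPM in Control cells (adjusted p = 9.06e-10 by edgeR, log2 fold change 1.75, SE 0.07).

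**Figure D4:**
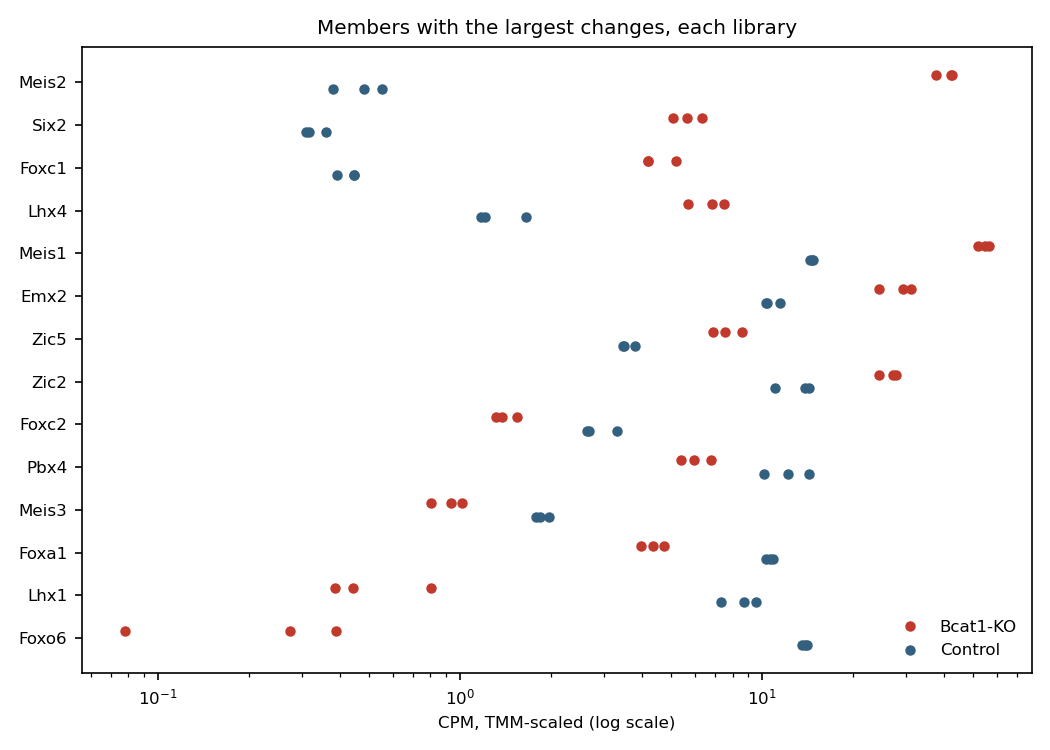
CPM of each library on a log scale (horizontal axis) for the 14 genes that changed by 1 or more on the log2 scale, with 1 CPM or more in the higher group and no overlap, with Bcat1-KO points above Control points in each row. Meis2, Six2 and Foxc1 stand at 0.31 to 0.551 CPM in the Control libraries, and Foxo6 at 0.078 to 0.388 CPM in the Bcat1-KO libraries.

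Of the 44 Fox genes 22 were silent and 21 were tested, with 9 higher and 8 lower, beside 38.9% of all protein-coding genes silent and 32% and 30.3% of all tested genes higher and lower. Foxc1 and Foxc2 went opposite ways. Foxc1, a factor of head mesenchyme, meninges and vessels, had 4.21, 4.18 and 5.2 CPM in the Bcat1-KO libraries, against 0.445, 0.392 and 0.447 CPM in the Control libraries, without overlap (adjusted p = 5.96e-08 by edgeR, log2 fold change 3.40, SE 0.21). Its close relative Foxc2 averaged 1.42 ± 0.12 CPM in Bcat1-KO cells and 2.88 ± 0.372 CPM in Control cells (adjusted p = 0.000458 by edgeR, log2 fold change -1.02, SE 0.18), and its log2 fold change was -0.55 (adjusted p = 0.0232) with the neighbouring genes' median of -0.47 removed. Foxf1, of visceral mesenchyme, fell by 0.35 on the log2 scale (adjusted p = 0.00335), and turned to 0.12 (adjusted p = 0.239) with the same median removed. Of the 10 fibroblast and mural cell markers 6 were tested, 0 were higher and 5 lower, beside 32% and 30.3% of all tested genes. Their sum was 35.8 to 40.2 CPM in Bcat1-KO and 105 to 113 CPM in Control, with Dcn and Lum under 1 CPM throughout, and their part in these changes was not tested. Foxa1, a pioneer factor of endoderm and floor plate, had 3.99, 4.37 and 4.73 CPM in the Bcat1-KO libraries, against 10.7, 10.3 and 10.9 CPM in the Control libraries (adjusted p = 2.14e-06 by edgeR, log2 fold change -1.28, SE 0.12).

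Foxm1, which drives mitotic genes, averaged 112 ± 2.73 CPM in Bcat1-KO cells and 83.7 ± 5.79 CPM in Control cells (adjusted p = 0.000208 by edgeR, log2 fold change 0.42, SE 0.07). Among the other FoxO genes, which act downstream of insulin and Akt, Foxo1 (log2 fold change 0.98, adjusted p = 2.3e-06) and Foxo4 (log2 fold change 0.46, adjusted p = 0.00559) were higher. Foxo3 fell by 0.41 on the log2 scale (adjusted p = 0.000735), a call lost with the neighbouring genes' median removed (adjusted p = 0.0813). Foxp1, a broadly used repressor, fell by 0.52 on the log2 scale (adjusted p = 6.72e-05), and its relative Foxp4 fell by 0.46 on the log2 scale (adjusted p = 0.000106). Foxp2, a factor of striatum and cortex, had 65 counts in Bcat1-KO and 6 in Control (adjusted p = 0.000123 by edgeR, log2 fold change 3.13, SE 0.47). Its call was lost on the log2(TPM + 1) scale, which shrinks changes of low genes. Foxp2 averaged 0.118 ± 0.0187 TPM in Bcat1-KO cells and 0.012 ± 0.0096 TPM in Control cells. Foxk2, with a TPM near that of Hoxa7, had 240, 241 and 260 CPM in the Bcat1-KO libraries, against 226, 211 and 225 CPM in the Control libraries and did not pass (adjusted p = 0.052 by edgeR, log2 fold change 0.16, SE 0.07), though it did in 7 of 15 alternatives. Foxn2 was higher (log2 fold change 0.60, adjusted p = 1.99e-05), and Foxn3 fell by 0.77 on the log2 scale (adjusted p = 0.000179), a call lost with the neighbouring genes' median removed. Foxd2 and Foxr2 had under 1 CPM in both groups and were higher (log2 fold change 1.43, adjusted p = 0.0151 and log2 fold change 1.49, adjusted p = 0.0115), and the call of Foxd2 was lost without Bcat1-KO replicate 3 or Control replicate 2. Foxk1 (log2 fold change -0.16, adjusted p = 0.0548), Foxj2 (log2 fold change 0.12, adjusted p = 0.271) and Foxj3 (log2 fold change 0.015, adjusted p = 0.836) did not pass.

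Neighbouring members did not always move together. Dlx1 and Dlx2, 9.43 kb apart on chromosome 2, are known to share enhancers in the ventral forebrain. Dlx1 had 21.8, 25 and 25.2 CPM in the Bcat1-KO libraries, against 16.4, 16.8 and 17.5 CPM in the Control libraries, higher without overlap (adjusted p = 0.000345 by edgeR, log2 fold change 0.51, SE 0.09), with 0.28 once the neighbouring genes' median was removed. Dlx2 had 14.9, 15.5 and 15.2 CPM in the Bcat1-KO libraries, against 22, 21.8 and 21.5 CPM in the Control libraries, lower without overlap (adjusted p = 0.000149 by edgeR, log2 fold change -0.52, SE 0.08). The reads of Dlx1 over those of Dlx2 were 1.47, 1.61 and 1.66 in Bcat1-KO and 0.745, 0.773 and 0.811 in Control, a ratio chosen after its values were seen (exact permutation test, two-sided p = 0.1, the smallest that 3 against 3 libraries allow). Dlx5 and Dlx6, a pair on chromosome 6, had 0 and 4 counts in Bcat1-KO and 2 and 11 in Control.

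The Zic genes encode zinc finger factors of the dorsal neural tube and cerebellum. Zic2 and Zic5, 9.76 kb apart on chromosome 14, both rose. Zic2 had 24.5, 27.2 and 27.9 CPM in the Bcat1-KO libraries, against 11.1, 14.3 and 13.9 CPM in the Control libraries (adjusted p = 6.89e-06 by edgeR, log2 fold change 1.02, SE 0.11). Zic5 had 6.87, 8.63 and 7.54 CPM in the Bcat1-KO libraries, against 3.5, 3.8 and 3.48 CPM in the Control libraries (adjusted p = 2.89e-05 by edgeR, log2 fold change 1.10, SE 0.14). Zic1 and Zic4 overlap on opposite strands of chromosome 9. Zic1 fell by 0.20 on the log2 scale (adjusted p = 0.0309), a call lost on the log2(TPM + 1) scale and without Control replicate 1. With the neighbouring genes' median removed Zic1 fell by 0.62. Zic4 (log2 fold change -0.27, adjusted p = 0.106) did not pass.

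Emx2, a dorsal forebrain factor, had 24.5, 29.3 and 31.3 CPM in the Bcat1-KO libraries, against 10.4, 10.4 and 11.5 CPM in the Control libraries, without overlap (adjusted p = 3.76e-07 by edgeR, log2 fold change 1.40, SE 0.11). Pax6 was higher (log2 fold change 0.26, adjusted p = 0.00621), lost its call without Control replicate 3 and turned to -0.11 with the neighbouring genes' median of 0.37 removed. Otx1 (log2 fold change 0.07, adjusted p = 0.551) and Pax9 (log2 fold change -0.025, adjusted p = 0.897) did not pass. Iroquois genes set territories in the neural plate, and of these Irx5 fell by 0.90 on the log2 scale (adjusted p = 4.46e-05) and Irx2 fell by 0.44 on the log2 scale (adjusted p = 0.000489), while Irx3 (log2 fold change 0.27, adjusted p = 0.0847) did not pass.

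No member switched between silent and on, and few of all genes did. With silent meaning a mean under 0.1 CPM in 1 group and on meaning at least 1 CPM in the other, 0 of the 155 members switched, against 0.313% of all genes in the tables. The count was also 0 with limits of 0.05 and 0.5 CPM, with TPM, with unstranded counts, with RLE scaling and without any 1 library. Meis2 and Foxo6 kept means of 0.471 CPM in Control and 0.247 CPM in Bcat1-KO. Foxp2 averaged 0.587 ± 0.0881 CPM in Bcat1-KO cells and 0.0622 ± 0.0505 CPM in Control cells. It was thus under 0.1 CPM in Control and short of 1 CPM in Bcat1-KO.

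Strand matters for 2 silent genes. Foxp3, the factor of regulatory T cells, had 4 reads on its own strand in Bcat1-KO and 1 in Control, and 1571 and 1212 on the opposite strand, where Ccdc22 overlaps it. Nkx6-2 had 1 read on its own strand in each group, and 484 opposite-strand reads in Bcat1-KO and 902 in Control, where Inpp5a overlaps it.

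Promoters were compared for 102 members found in the RefSeq promoter table (GRCm38.p6), over the 250 bases before the start. The CpG observed over expected ratio had a median of 0.654 in 54 silent members, 0.687 in 45 tested members and 0.374 in all 32851 promoters of the table. Motifs were searched as letters on both strands, and none contains another. The Meis core TGACAG was in 17.6% of the 102 members and 15.9% of all promoters. The Pbx-Hox letters TGATTNAT were in 3.92% and 2.82%, the forkhead letters TGTTTAC in 0.98% and 3.17%, and the TATA box TATAAA in 7.84% and 12.4%. TGACAG was in 12 of 45 tested members, with 6 of 17 higher members and 1 of 15 lower members. Uncalled members held it too, namely Foxj3, Nkx3-2, Pax9, Six5 and Zic4. Some of these windows lie far from the deposited start, as for Lhx9 (6133 bases) and Six3 (7226 bases), both higher, and Zic4 (6559 bases). Whether the motif goes with the changes was not tested. Foxo6, which had the largest fall, had no entry among these promoters. Meis2, Six2, Foxc1 and Lhx1 are printed for the size of their change. Hoxa10 and Hoxd10 are printed as a transcribed and a silent gene of the same Hox number. Capitals mark motif matches on either strand.
Meis2 (chr2:116064620-116064869, minus strand): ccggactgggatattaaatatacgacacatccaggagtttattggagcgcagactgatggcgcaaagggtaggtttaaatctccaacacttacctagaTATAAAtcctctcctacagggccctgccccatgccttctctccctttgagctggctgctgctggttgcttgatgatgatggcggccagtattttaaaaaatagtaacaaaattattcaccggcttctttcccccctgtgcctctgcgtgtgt
Six2 (chr17:85688255-85688504, minus strand): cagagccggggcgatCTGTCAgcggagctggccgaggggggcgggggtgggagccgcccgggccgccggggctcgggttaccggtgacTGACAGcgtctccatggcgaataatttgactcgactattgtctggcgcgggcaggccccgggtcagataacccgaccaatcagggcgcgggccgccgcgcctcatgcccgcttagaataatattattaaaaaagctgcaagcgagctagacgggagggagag
Foxc1 (chr13:31806396-31806645, plus strand): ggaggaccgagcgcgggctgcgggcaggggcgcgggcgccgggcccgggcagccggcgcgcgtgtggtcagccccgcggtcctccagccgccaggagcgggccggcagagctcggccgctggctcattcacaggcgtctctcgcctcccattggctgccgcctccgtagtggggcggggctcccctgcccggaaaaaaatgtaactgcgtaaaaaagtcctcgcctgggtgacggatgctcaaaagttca
Lhx1 (chr11:84525535-84525784, minus strand): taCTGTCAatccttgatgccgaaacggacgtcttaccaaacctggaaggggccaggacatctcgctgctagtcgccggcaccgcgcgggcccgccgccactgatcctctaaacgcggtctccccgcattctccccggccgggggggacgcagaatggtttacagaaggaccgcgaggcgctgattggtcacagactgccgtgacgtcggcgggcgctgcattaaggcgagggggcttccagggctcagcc
Hoxa10 (chr6:52240855-52241104, minus strand): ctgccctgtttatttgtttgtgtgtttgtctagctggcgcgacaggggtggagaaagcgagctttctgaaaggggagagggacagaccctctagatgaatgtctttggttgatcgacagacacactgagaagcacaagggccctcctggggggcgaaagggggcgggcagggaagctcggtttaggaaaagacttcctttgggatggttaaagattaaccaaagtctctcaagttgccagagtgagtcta
Hoxd10 (chr2:74691641-74691890, plus strand): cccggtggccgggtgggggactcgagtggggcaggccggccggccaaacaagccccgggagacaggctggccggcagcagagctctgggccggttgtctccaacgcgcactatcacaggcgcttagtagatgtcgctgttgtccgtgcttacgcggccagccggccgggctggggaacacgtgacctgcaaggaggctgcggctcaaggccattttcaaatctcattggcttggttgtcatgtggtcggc

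In these windows Six2 holds the Meis core on each strand, Lhx1 holds it once and Meis2 holds the TATA box, at a start 1220 bases from that of the deposited tables. Foxc1, Hoxa10 and Hoxd10 hold none of the 4 motifs. The CpG ratio is 0.458 for Hoxa10, which is transcribed, and 0.755 for Hoxd10, which had 0 counts.

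Homeobox genes outside the families changed in both directions. Of 89 listed, 47 were tested, and 16 were higher and 21 lower, beside 32% and 30.3% of all tested genes. Prrx1 and Prrx2, paired-type factors of limb and head mesenchyme, went opposite ways. Prrx1 had 16.6, 20.5 and 20.9 CPM in the Bcat1-KO libraries, against 0.286, 0.301 and 0.275 CPM in the Control libraries (adjusted p = 1.38e-10 by edgeR, log2 fold change 6.05, SE 0.19). Prrx2 had 1.41, 0.936 and 1.05 CPM in the Bcat1-KO libraries, against 28.4, 27.5 and 28.8 CPM in the Control libraries (adjusted p = 1.1e-10 by edgeR, log2 fold change -4.64, SE 0.14). Of 39 genes that regulate Hox clusters through chromatin or retinoic acid, 32 were tested, 4 were higher and 14 lower, beside the same shares. Rarb, a retinoic acid receptor gene, had 117 counts in Bcat1-KO and 3 in Control (adjusted p = 1.46e-05 by edgeR), while Aldh1a3, which makes retinoic acid, averaged 0.459 ± 0.15 CPM in Bcat1-KO cells and 4 ± 0.241 CPM in Control cells (adjusted p = 2.89e-07 by edgeR, log2 fold change -3.11, SE 0.23).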

How the data were processed

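Per the submitters' processing notes, the authors used STAR 2.5.3a, featureCounts and the mm10 build, and no release of the gene annotation is given in the sources used here. The deposited counts are raw reads per gene, unstranded and by strand, per the file headers. The reverse-strand counts, 96.4% to 96.5% of stranded reads, entered the test. TPM values deposited by the authors served for levels between genes and for an alternative. Gene types came from GENCODE M21.

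The edgeR 4.0.16 expression filter kept 14020 of 49585 genes. They were scaled by TMM and compared by the quasi-likelihood test without covariates, and p-values were adjusted by Benjamini-Hochberg (threshold 0.05). CPM values are TMM-scaled. The test was tried on simulated counts. Members named by library were those past the threshold whose log2 fold change was 1 or more in size, with 1 CPM or more in the higher group and no overlap (up to 12 a direction), and the 8 with the highest TPM. A few genes that this takes are not reported here. Other members with values were chosen after these were seen. Members and lists were chosen with earlier results of these data known. Alternatives were RLE scaling, no filter, DESeq2 1.42.0, limma-voom and limma-trend on log2(TPM + 1) (limma 3.58.1), unstranded counts, a replicate block, removal of the local median of 51 genes or of a length trend, and leaving out each library. The common biological coefficient of variation was 8.26%. Replicates differed beyond counting noise (chi-square 3.78 to 30.5 per gene). R 4.3.3 and Python 3.11.15 were used.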

Additional observations from a re-analysis of the deposited data

Results flagged for a closer look

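The name rule leaves out 13 antisense genes, of which only Emx2os, Foxd2os, Irx3os, Lhx1os and a row of Nkx2-2os were tested. Of these tested genes 2 were called higher in Bcat1-KO, beside 32% of all tested genes higher and 30.3% lower. Emx2os, antisense to Emx2, averaged 8.37 ± 0.893 CPM in Bcat1-KO cells and 3.86 ± 0.257 CPM in Control cells (adjusted p = 2.19e-05 by edgeR, log2 fold change 1.11, SE 0.14). Foxd2os averaged 3.87 ± 0.306 CPM in Bcat1-KO cells and 1.66 ± 0.157 CPM in Control cells (adjusted p = 5.46e-05 by edgeR, log2 fold change 1.22, SE 0.17). Lhx1os, antisense to Lhx1, was lower, at 0.776 ± 0.0743 CPM in Bcat1-KO cells and 3.11 ± 0.146 CPM in Control cells (adjusted p = 2.4e-06 by edgeR).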

How the results depend on the processing

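Over 15 alternatives the number of members called higher ran from 21 to 29 and lower from 18 to 22, against 25 and 20. Leaving out 1 library gave 21 to 27 higher and 18 to 22 lower. Silent members numbered 85 to 89, against 88, and switches 0 in each alternative run. Of the 45 called members, 31 kept the call in every alternative and 14 lost it in at least 1, and 10 of 17 uncalled members gained one. The sign turned for Hoxa6 with the neighbouring genes' median removed (-0.19) and without Bcat1-KO replicate 1, in a range of -0.16 to 0.20 over left-out libraries. It turned for Hoxa7 with TPM (0.033) and without Bcat1-KO replicate 2, in a range of -0.088 to 0.018. Nkx2-2 turned with the neighbouring median removed (-0.19, adjusted p = 0.0287 by edgeR). The cause was not tested. On the log2(TPM + 1) scale, which shrinks changes of low genes, Meis2 had 3.43, Six2 2.71, Foxc1 1.82 and Foxo6 -3.77. With a replicate block 27 members were higher and 21 lower. Deviations of same-numbered libraries from their group means had correlations of -0.051, -0.073 and 0.156. Bcat1-KO replicate 3 correlated best with its own number, and replicates 1 and 2 did not. With 3 libraries a group, these values cannot settle whether the numbers mark pairs. Genes under about 0.1 CPM are beyond this depth.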

Other observations

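Of 19 genes that Foxm1 is known to drive, all tested, 18 were higher in Bcat1-KO and 0 lower, where 32% of all tested genes were higher and 30.3% lower. The counts that follow stand beside the same shares. Plk1, a mitotic kinase gene, averaged 181 ± 20.1 CPM in Bcat1-KO cells and 90.2 ± 5.95 CPM in Control cells (adjusted p = 1.12e-06 by edgeR). Of 21 tested FoxO targets 7 were higher and 8 lower. Gadd45a, a growth arrest gene, averaged 45 ± 0.683 CPM in Bcat1-KO cells and 136 ± 3.61 CPM in Control cells (adjusted p = 7.54e-10 by edgeR, log2 fold change -1.60, SE 0.06). Of 11 tested motile cilia genes, a program run by Foxj1, 4 were higher and 4 lower, while Foxj1 averaged 1.29 ± 0.309 CPM in Bcat1-KO cells and 0.686 ± 0.101 CPM in Control cells and lost its call without Control replicate 2.

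Of 12 tested genes of the Sonic hedgehog pathway, which patterns the ventral neural tube, 3 were higher and 7 lower. Gli1, an effector and target of the pathway, had 0.914, 0.728 and 0.798 CPM in the Bcat1-KO libraries, against 45, 29.6 and 29.2 CPM in the Control libraries (adjusted p = 1.13e-09 by edgeR, log2 fold change -5.41, SE 0.21). Gli3, which acts largely as a repressor, had 50.8, 45.6 and 51.8 CPM in the Bcat1-KO libraries, against 9.22, 8.01 and 8.33 CPM in the Control libraries (adjusted p = 4.12e-10 by edgeR, log2 fold change 2.53, SE 0.09). Ptch1, a receptor and target gene, averaged 168 ± 10.4 CPM in Bcat1-KO cells and 401 ± 20.7 CPM in Control cells (adjusted p = 3.72e-08 by edgeR). Shh itself had 0 counts.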
